A study of Mus musculus with 6 samples.

Results

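The ribosome of the cytosol is built from ribosomal RNA and many ribosomal proteins, most of them present as a single copy. The genes of those proteins are described here in a mouse muscle cell line. They were chosen by symbol from the authors' deposited tables, as Rpsa and every symbol made of Rpl or Rps with a number, an optional letter, or P0 to P2. Symbols of pseudogenes ending in -ps were left out. The rule found 83 genes among the 27179 rows of each table, of which 32 encode small subunit (Rps and Rpsa) and 51 large subunit (Rpl and Rplp) proteins or their close relatives. An adjusted p was given in each table for 80 of them, and not for 3. Rps4l had a mean of 0, and Rpl10l and Rpl39l, both relatives known from testis, were below 1 normalized count.

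RNA was sequenced from C2C12 cells, an established mouse myoblast line that forms myotubes when serum is reduced, at 48 h of differentiation in horse serum and insulin. All 6 libraries came from cells with a stably transfected shRNA construct: 2 with a non-targeting scrambled shRNA, 2 with a BAF250A shRNA and 2 with a BRD9 shRNA. Both targets are subunits of SWI/SNF chromatin remodelling enzymes: BAF250A, the product of Arid1a, of the BAF form, and BRD9 of the non-canonical form, ncBAF. Each knockdown was compared with the same 2 scrambled libraries, and the series title asks how far these forms are needed for muscle differentiation. The labels do not say how many stable lines stand behind each construct. A BAF180 shRNA named in the protocol was not analysed here.

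In growing cells, transcripts of ribosomal proteins are among the most abundant messenger RNAs. Most of these messages start with a run of pyrimidines, the TOP motif, through which growth signals switch their translation. Because the transcripts are abundant and stable, reverse transcriptases have pasted many spliced copies of them back into mammalian genomes, and these processed pseudogenes, or retrocopies, can be almost identical to the parent gene. A short read from such a stretch cannot be placed by its sequence alone, and the labels do not say how such reads were handled.

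Some of the sequences that parent genes share with other rows of the tables are shown first, since most results below concern such rows. Each pair gives 90 bases of the parent's coding sequence, in lower case, with the best ungapped match in the copy, from GENCODE M21 transcripts on GRCm38, read 5′ to 3′ on the transcript. Capitals mark the bases at which the 2 lines differ. Rps27 (chr3:90212522-90213651, minus strand) and its retrocopy Rps27rt (chr9:114982366-114982739, minus strand) were the same over the first 90 coding bases:
Rps27: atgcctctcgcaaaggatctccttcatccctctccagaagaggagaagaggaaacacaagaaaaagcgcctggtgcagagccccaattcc
Rps27rt: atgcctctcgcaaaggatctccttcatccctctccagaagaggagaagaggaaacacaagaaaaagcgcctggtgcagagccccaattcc
The copy Gm9385 (chr9:116040593-116041064, minus strand) carried the first 90 coding bases of Rpl24 (chr16:55966275-55971435, plus strand) without a difference:
Rpl24: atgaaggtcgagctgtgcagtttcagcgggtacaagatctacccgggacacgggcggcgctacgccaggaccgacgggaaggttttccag
Gm9385: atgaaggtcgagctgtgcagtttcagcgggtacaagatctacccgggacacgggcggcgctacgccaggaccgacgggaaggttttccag
Rpl32 (chr6:115805505-115808747, minus strand) and Rpl32l (chr10:20208490-20208888, plus strand), a member by its symbol that GENCODE annotates as a processed pseudogene, differed at 1 of 90 bases:
Rpl32: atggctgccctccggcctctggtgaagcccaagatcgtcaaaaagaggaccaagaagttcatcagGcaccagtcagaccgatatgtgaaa
Rpl32l: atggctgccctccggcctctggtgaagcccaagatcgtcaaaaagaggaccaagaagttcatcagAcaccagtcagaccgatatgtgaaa
Gm11478 (chr11:86630428-86631026, minus strand) lacked the start of Rpl13a (chr7:45125558-45128761, minus strand) and matched its coding bases 91 to 180 at 86 of 90 positions:
Rpl13a: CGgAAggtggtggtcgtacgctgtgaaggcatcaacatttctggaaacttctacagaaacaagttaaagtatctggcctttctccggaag
Gm11478: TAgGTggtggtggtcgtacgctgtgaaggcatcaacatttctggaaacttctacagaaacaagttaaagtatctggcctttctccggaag
Rpl3l (chr17:24727820-24736143, plus strand) is different in kind, an intron-containing relative of Rpl3 (chr15:80077791-80091868, minus strand) that is known from striated muscle, and 21 of its first 90 coding bases differed:
Rpl3: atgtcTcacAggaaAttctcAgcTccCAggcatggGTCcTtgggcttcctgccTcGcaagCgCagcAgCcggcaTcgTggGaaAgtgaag
Rpl3l: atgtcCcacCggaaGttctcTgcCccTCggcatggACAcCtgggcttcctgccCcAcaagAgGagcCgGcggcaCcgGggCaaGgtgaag

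All fold changes below are log2 values of knockdown over scrambled shRNA from the authors' deposited tables, with the deposited standard error (SE), and a gene is called at a deposited adjusted p below 0.05. The tables do not name the numerator; a positive value was taken to mean higher with the knockdown, since Arid1a was at -1.95 (SE 0.48) in the BAF250A table and Brd9 at -1.60 (SE 0.54) in the BRD9 table of the authors' deposited tables. The tables hold one mean normalized count per gene over the 4 libraries of a comparison, so levels per library were not analysed here. Levels per group were computed from that mean and the fold change, treated as a ratio of group means, and are called implied levels. They carry no error of their own and are uncertain at low counts. The deposited fold changes appear drawn towards 0. Rps15a-ps1, with a single read in a scrambled library (mean 0.159), was at -0.19 (SE 1.36) with BAF250A. Its implied level with BAF250A shRNA was 0.148. Implied levels, and the sums and shares made from them, were not corrected for this. Size factors recovered from rows with a single read were 1.58 and 1.09 for the scrambled libraries and 0.801 and 0.773 for the BAF250A libraries, so the control libraries had the larger ones. The BRD9 table gave 1.48 and 1.07 (scrambled) and 0.841 and 0.782 (BRD9 shRNA). The authors' p-values rest on the spread within pairs of libraries.

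Most ribosomal protein genes were far higher in both knockdowns than with scrambled shRNA. With BAF250A shRNA 64 of the 80 tested genes rose, 4 fell and 12 were not called, with a median log2 fold change of 3.63. Among all 16450 genes tested there, 11.2% were called higher and 17.5% lower, and the median was -0.18. With BRD9 shRNA 60 of 80 rose, 3 fell and 17 were not called, with a median of 3.04, against 5.11% called higher and 9.33% lower of 17198 genes and a median of -0.15. These counts are from the authors' deposited tables. Both comparisons rest on the same 2 scrambled libraries, and whether these were aligned and counted in the same way as the knockdown libraries cannot be told from the tables, a limit that holds for every fold change of a member or copy. Without the 7 symbols that end in l, a choice made after seeing the data, 64 of 76 rose and 1 fell with BAF250A, and 60 rose and 1 fell with BRD9. In a bulk sample, a changed share of cells of one kind and a changed level per cell cannot be told apart.

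**Figure D1:**
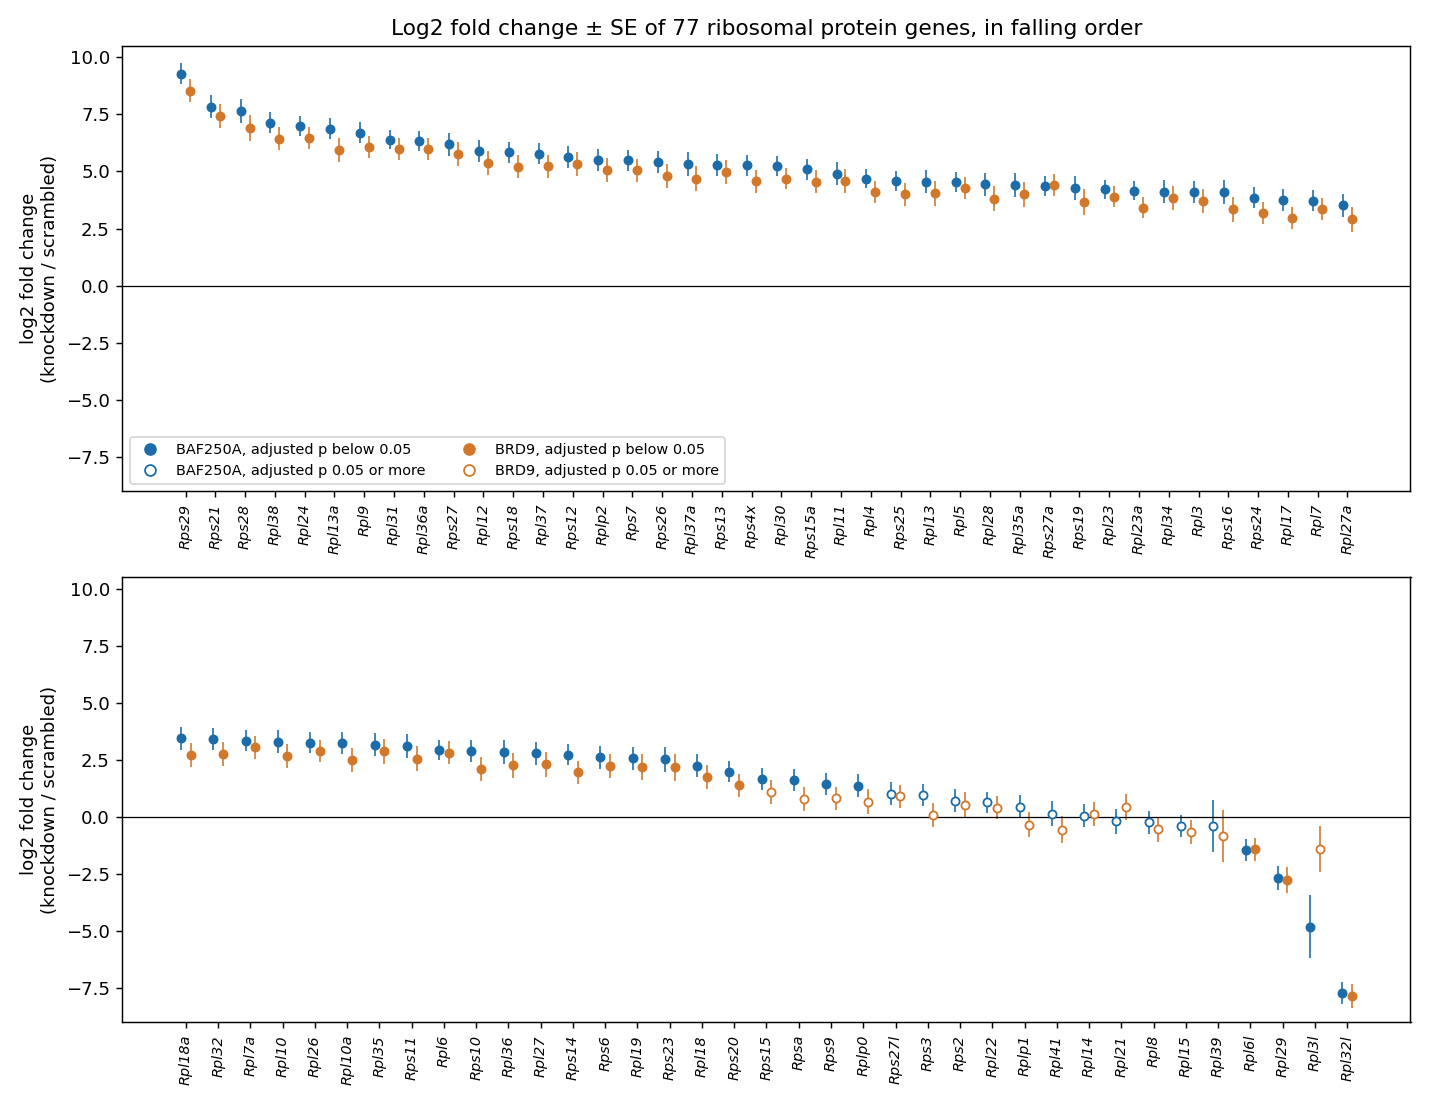
Log2 fold change with its SE (y axis) for 77 of the 80 tested ribosomal protein genes (x axis, in falling order with BAF250A, 40 in the first row), BAF250A in blue and BRD9 in orange; filled points have an adjusted p below 0.05. Values run from 9.29 for Rps29 to -7.71 for Rpl32l with BAF250A.

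Among small subunit genes, 27 of 31 rose with BAF250A and 24 of 31 with BRD9, and none fell in the authors' deposited tables. Rps29, a small zinc-binding protein of the head of the subunit, had the highest value of all members. Its implied level was 29.1 normalized counts with scrambled shRNA and 18171 with BAF250A shRNA, and 32.8 and 12215 in the BRD9 table. The authors' deposited tables give Rps29 a log2 fold change of 9.29 (SE 0.46, adjusted p 5.91e-87) and 8.54 (SE 0.51, adjusted p 1.43e-60), and only 3 rows of the BAF250A table and 2 of the BRD9 table, Rps29 included, had a value this high.

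Rps21 and Rps28, both small proteins of the subunit, came next. The implied level of Rps21 was 41.2 with scrambled and 9394 with BAF250A shRNA, and that of Rps28 was 165 and 33258. In the authors' deposited tables Rps21 was at 7.83 (SE 0.50) and 7.43 (SE 0.54), and Rps28 at 7.65 (SE 0.52) and 6.91 (SE 0.56), BAF250A first. Rps27, another zinc-binding protein, followed at 6.20 (SE 0.50) and 5.76 (SE 0.54) per the authors' deposited tables.

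Rps6, the substrate of S6 kinase, rose less, from an implied 7827 to 47818 normalized counts with BAF250A and from 8199 to 38064 with BRD9. The authors' deposited tables give Rps6 log2 fold changes of 2.61 (SE 0.50, adjusted p 2.51e-06) and 2.21 (SE 0.53, adjusted p 0.00046). Rps19, mutated in Diamond-Blackfan anaemia, rose by 4.29 (SE 0.53) with BAF250A and by 3.68 (SE 0.57) with BRD9 in the authors' deposited tables. Rps14, whose loss of one copy marks the 5q- syndrome, rose by 2.72 (SE 0.46) and 1.96 (SE 0.50) per the authors' deposited tables. Rps27a, made as a fusion with ubiquitin, was at 4.36 (SE 0.44) and 4.43 (SE 0.49) per the authors' deposited tables.

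Small subunit genes called in neither table included Rps2, Rps3 and Rps27l. Rps3, a protein of the messenger RNA entry site, was at 0.95 (SE 0.48, adjusted p 0.123) and 0.08 (SE 0.52, adjusted p 0.953) per the authors' deposited tables. Rps27l, the p53-responsive relative of Rps27, was at 1.02 (SE 0.49) and 0.90 (SE 0.51) per the authors' deposited tables and was not called. Rps9, Rps15 and Rpsa, the last also known as the laminin receptor, were called with BAF250A (1.44, 1.66 and 1.62) and not with BRD9 (0.81, 1.09 and 0.79) per the authors' deposited tables. That contrast of calls is not a tested difference; the difference itself is given below.

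Among large subunit genes, 37 of 49 rose and 4 fell with BAF250A, and 36 rose and 3 fell with BRD9 in the authors' deposited tables. With BAF250A the highest were Rpl38, a small protein known for mouse mutants with skeletal patterning defects, then Rpl24, Rpl13a, Rpl9 and Rpl31; with BRD9 Rpl24 was first, and Rpl9, Rpl31 and Rpl36a lay above Rpl13a, by less than their SE. The implied level of Rpl38 was 69.1 with scrambled and 9752 with BAF250A shRNA, and that of Rpl24 was 249 and 31662. The authors' deposited tables give 7.14 (SE 0.46) and 6.43 (SE 0.50) for Rpl38, and 6.99 (SE 0.44) and 6.47 (SE 0.49) for Rpl24. Rpl13a, a protein also linked to interferon-induced control of translation, was at 6.88 (SE 0.47) and 5.95 (SE 0.52) per the authors' deposited tables. Rpl9 was at 6.70 (SE 0.44) and 6.07 (SE 0.49), and Rpl31 at 6.40 (SE 0.42) and 5.99 (SE 0.47) per the authors' deposited tables.

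Rpl5 and Rpl11, which with 5S RNA bind and inhibit Mdm2, rose by 4.53 (SE 0.45) and 4.91 (SE 0.49) with BAF250A and by 4.27 (SE 0.48) and 4.59 (SE 0.53) with BRD9 in the authors' deposited tables. Rpl23, another Mdm2 binder, rose by 4.23 (SE 0.42) and 3.90 (SE 0.47), and Rpl26, which binds p53 messenger RNA, by 3.25 (SE 0.45) and 2.88 (SE 0.50) per the authors' deposited tables.

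The stalk proteins, which recruit elongation factors, differed in their calls. Rplp2 was at 5.52 (SE 0.49) and 5.07 (SE 0.53) per the authors' deposited tables, from an implied 600 to 27416 normalized counts with BAF250A. Its partner Rplp1 was already at an implied 56808 with scrambled shRNA and at 77798 with BAF250A, and was called in neither of the authors' deposited tables (0.45, SE 0.49, and -0.34, SE 0.54). Rplp0, the base of the stalk and a frequent reference gene in quantitative PCR, was called with BAF250A (1.37, SE 0.49, adjusted p 0.0212) and not with BRD9 (0.67, SE 0.53, adjusted p 0.480) per the authors' deposited tables.

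8 large subunit genes were called in neither table: Rpl8, Rpl14, Rpl15, Rpl21, Rpl22, Rpl39, Rpl41 and Rplp1. Rpl8, next to the peptidyl transferase centre, had the highest implied control level of all, 106702 normalized counts against 90587 with BAF250A, and the authors' deposited tables place it at -0.24 (SE 0.50) and -0.54 (SE 0.55). Rpl41, the smallest ribosomal protein, was next at 95709 against 105078, and at 0.13 (SE 0.56) and -0.55 (SE 0.59) per the authors' deposited tables. Rpl39 and Rpl21 were low in every group, with implied levels of 11.6 and 121 normalized counts with scrambled shRNA and 8.66 and 106 with BAF250A.

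The called decreases were Rpl32l, Rpl29, Rpl6l and, with BAF250A, Rpl3l. Rpl32l fell from an implied 21343 normalized counts to 102 with BAF250A and from 22139 to 96.7 with BRD9. The authors' deposited tables give Rpl32l -7.71 (SE 0.49, adjusted p 9.26e-52) and -7.84 (SE 0.53, adjusted p 5.81e-46). Rpl32 itself, whose first coding bases are printed above beside those of Rpl32l, rose by 3.41 (SE 0.49) and 2.75 (SE 0.53) per the authors' deposited tables. Rpl6l, also annotated as a processed pseudogene, was at -1.44 (SE 0.47) and -1.42 (SE 0.52), while Rpl6 was at 2.92 (SE 0.45) and 2.81 (SE 0.50) per the authors' deposited tables.

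Rpl29, a heparin-binding protein of the large subunit, was the only member outside the symbols ending in l that fell, at -2.68 (SE 0.53) and -2.75 (SE 0.56) per the authors' deposited tables. Its implied level was 455 normalized counts with scrambled shRNA against 71.2 with BAF250A. Rpl3l had an implied 21.7 normalized counts with scrambled and 0.775 with BAF250A shRNA, and 22.3 and 8.40 in the BRD9 comparison. These are too few for a stable fold. The authors' deposited tables give Rpl3l -4.81 (SE 1.37, adjusted p 0.0027) and -1.41 (SE 0.99, adjusted p 0.411). Rpl3, its relative in all tissues, rose by 4.10 (SE 0.47) and 3.70 (SE 0.51) per the authors' deposited tables. The parents Rpl10 and Rps4x rose by 3.30 (SE 0.49) and 5.26 (SE 0.45) with BAF250A in the authors' deposited tables.

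Levels of different genes were compared per kb of messenger RNA, as implied normalized counts divided by the length of the longest principal transcript. That length was 1856 bases for Rpl21, 3706 for Rps20 and 5179 for Rps15a. Which transcripts the cells made was not analysed. Where a shorter one was made, the level per kb is too low, and the range and spread below depend on this choice. Most proteins of the ribosome are made in near equal numbers, and the control levels of the members' messages covered a wide range. The 76 members with a mean of at least 100 normalized counts were used, without Rpl32l and Rpl6l, which GENCODE annotates as processed pseudogenes. RefSeq lists Rpl32l as protein-coding. Among the 76, the control level per kb ran from 65.0 (Rpl21) to 164449 (Rpl41), with a median of 1898. With BAF250A shRNA it ran from 57.1 to 180546, with a median of 29557. The standard deviation of the log2 level per kb was 2.44 in the control and 1.82 with BAF250A, and 2.41 and 1.67 in the BRD9 table. The 6 members with the highest control counts (Rpl8, Rpl41, Rplp0, Rpsa, Rplp1 and Rps3) held 62.7% of the members' summed implied counts with scrambled shRNA and 26.7% with BAF250A. In the BRD9 table they held 62.3% and 23.8%.

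**Figure D2:**
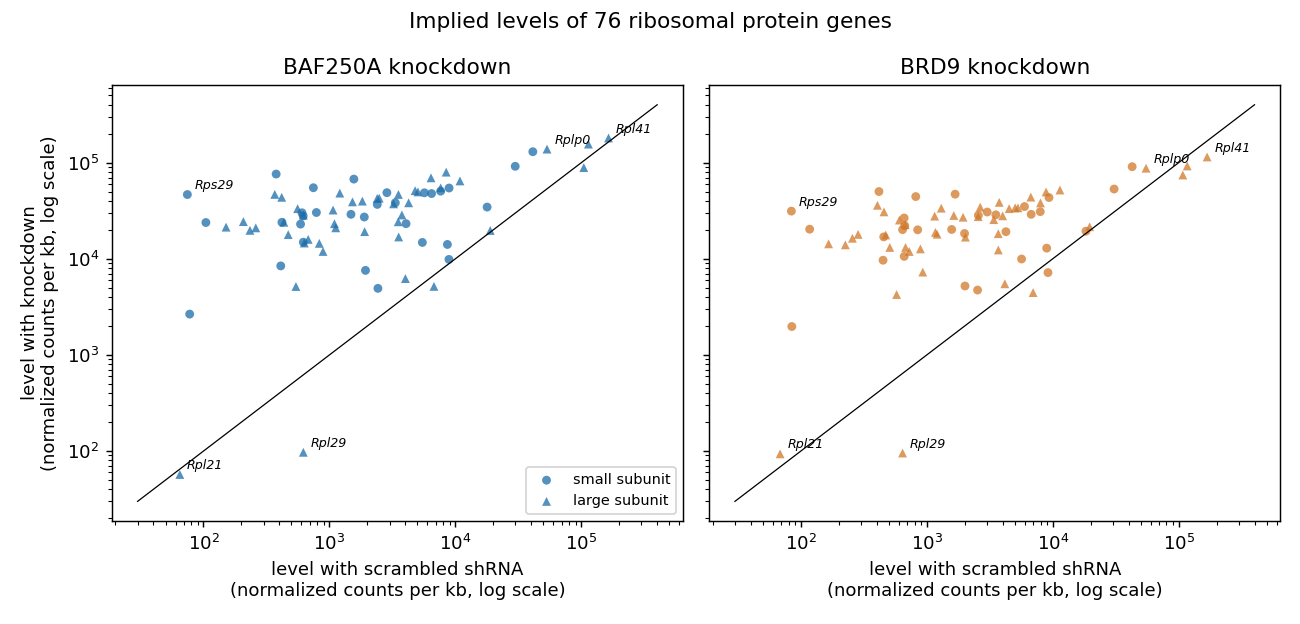
Implied level per kb with scrambled shRNA (x axis) and with each knockdown (y axis), both in normalized counts per kb on log scales, for the 76 members with a mean of at least 100; circles are small and triangles large subunit genes, and the line marks equal levels. Most points lie above the line, and the genes with the highest control level, such as Rpl41, lie near it. Rpl29 lies below it with both knockdowns, and Rpl21 with BAF250A, at lower control levels. The control level enters both the x axis and the distance from the line, so their relation has no test.

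Most well-measured copies of the members fell. A row was counted as a copy where at least 20% of its 25-base words came from one member's transcripts, or where its name marks it as a member's pseudogene or retrocopy. This gave 127 rows, 121 by sequence and 6 by name alone. With BAF250A 103 copies were tested, of which 74 fell, 1 rose and 28 were not called, with a median log2 fold change of -3.09. With BRD9 105 were tested, of which 74 fell and 1 rose, with a median of -3.06. Among the 74 copies with a mean of at least 100, 65 fell with BAF250A and 64 with BRD9. All of these counts are from the authors' deposited tables, and the same 17.5% and 9.33% of all tested genes were lower.

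**Figure D3:**
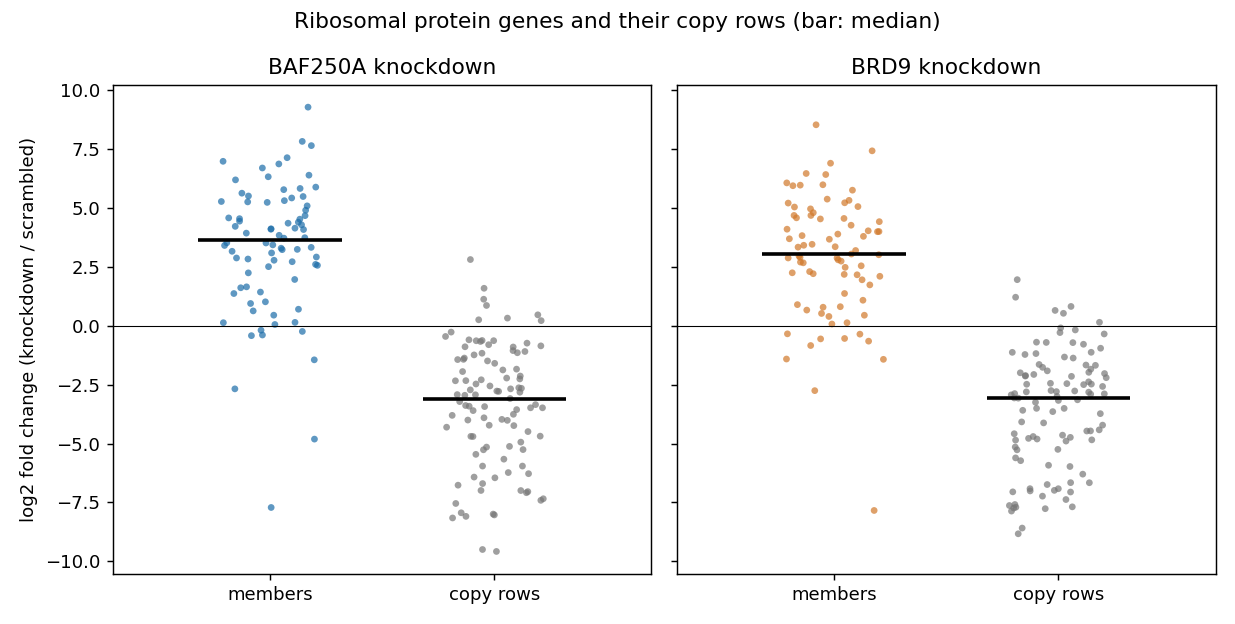
Log2 fold change (y axis) of every tested member and every tested copy row (x axis, points spread sideways for sight only) with each knockdown; bars are medians. The medians are 3.63 for members and -3.09 for copies with BAF250A, and 3.04 and -3.06 with BRD9.

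Gm11478, the copy of Rpl13a printed above, had the largest counts. Its implied level was 145385 normalized counts with scrambled shRNA, against 217 for Rpl13a itself, and 593 against 25523 for Rpl13a with BAF250A. In the authors' deposited tables Gm11478 was at -7.94 (SE 0.51, adjusted p 2.44e-52) and -8.59 (SE 0.55, adjusted p 2.1e-52). Rps27rt went from an implied 21242 to 1076 with BAF250A, where Rps27 went from 257 to 18919, and Gm9385 from 17981 to 1114, where Rpl24 went from 249 to 31662. The authors' deposited tables give -4.30 (SE 0.48) and -4.58 (SE 0.52) for Rps27rt, and -4.01 (SE 0.48) and -4.46 (SE 0.52) for Gm9385. In each pair the row with nearly all of the counts in the control was the copy, and in the knockdown it was the parent.

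Further copies with large decreases in the BAF250A column of the authors' deposited tables were Rpl13-ps6 at -7.09 (SE 0.53), Gm10051, a copy of Rpl28, at -7.34 (SE 0.53), Rpl31-ps9 at -6.99 (SE 0.51), and Gm9457, a copy of Rpl22, at -9.50 (SE 0.66). The row that rose was Gm10362, a copy of Rpl17, at 1.60 (SE 0.48) and 1.96 (SE 0.49) per the authors' deposited tables. Gm15772, a copy of Rpl26, was high in all groups, with an implied 22679 normalized counts with scrambled shRNA and 27121 with BAF250A, and was not called.

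Summed over all 83 members, implied counts were 675939 with scrambled shRNA and 2642400 with BAF250A, which is 1.64% and 5.97% of all normalized counts. In the BRD9 table the shares were 1.63% and 4.42%. Copies held 1.51% in the control and 0.209% with BAF250A, and 1.50% and 0.177% in the BRD9 table. Members and copies together held 3.15% and 6.18%, and 3.13% and 4.60%. A further 1275 rows carry no symbol and could not be linked to a member; of the 120 with a mean of at least 100, 78 fell and 5 rose with BAF250A and 74 fell and 2 rose with BRD9 in the authors' deposited tables.

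Each member was then summed with its copies, with Rpl32l counted as a copy of Rpl32 and Rpl6l of Rpl6. Over the 50 families with counts, copies held a median of 83.6% of a family's implied counts in the control and 1.82% with BAF250A, and 83.1% and 1.89% in the BRD9 table. The median log2 ratio of the family sums was 0.97 with BAF250A, against 4.10 for the members of these families alone, and 0.54 against 3.44 with BRD9. The sum lay nearer to 0 than the member in 46 of 50 families with BAF250A and in 44 with BRD9. Where a member rose and its copies fell, the sum has to lie below the member. These counts therefore follow largely from the directions given above. It was within 1 log2 unit of the control in 20 and 23 families, where the member alone was so in 6 and 6. The sums have no error and no test, since the tables hold no values per library.

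**Figure D4:**
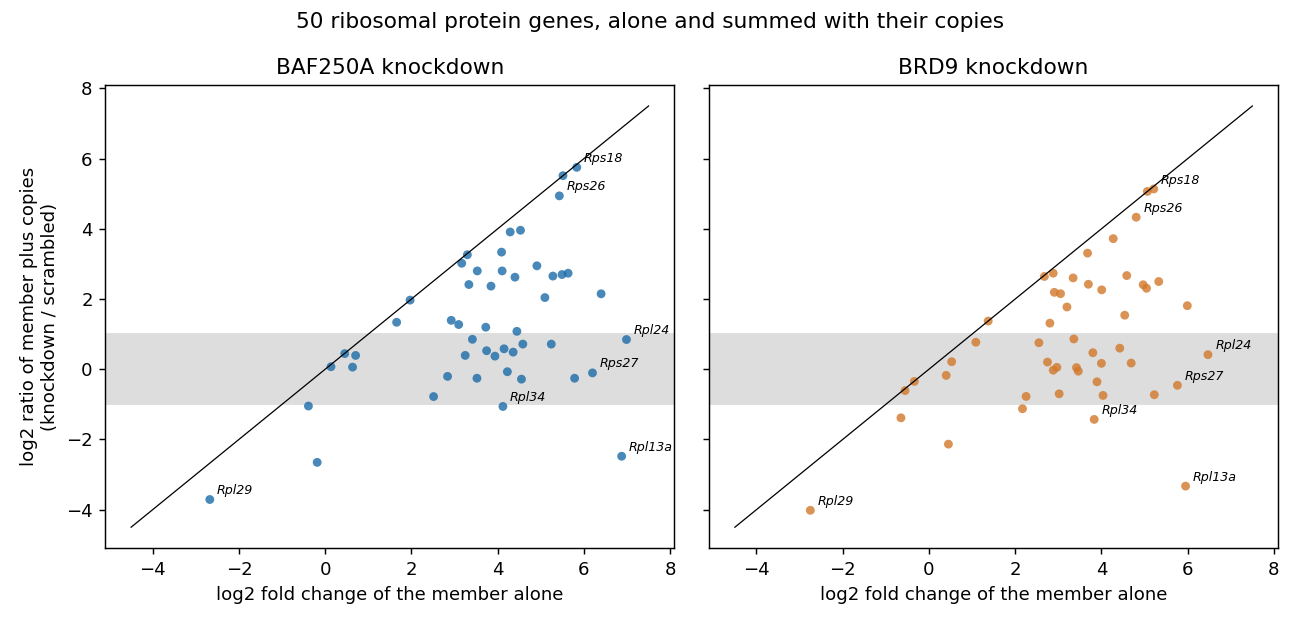
Log2 fold change of the member alone (x axis) and log2 ratio of the summed implied levels of the member and its copies (y axis) for 50 families with each knockdown; the line marks equal values and the grey band lies within 1 log2 unit of 0. Most families lie below the line, and 20 with BAF250A and 23 with BRD9 lie in the band.

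Families differed widely in this. The Rps27 family summed to 21499 implied counts with scrambled shRNA and 19995 with BAF250A, a log2 ratio of -0.10 where Rps27 alone was at 6.20 in the authors' deposited table. Similarly the Rpl23 family was at -0.07 and the Rpl37 family at -0.26 with BAF250A. The Rpl13a family went below the control, from 145615 to 26121 (-2.48), as did that of Rpl29 (-3.71). In other families the sum lay close to the member with BAF250A. Rps18, whose copies held 5.68% of the control sum, had a log2 ratio of 5.75 against 5.83 alone. Rps26, mutated in Diamond-Blackfan anaemia, had one of 4.94 against 5.43 alone, although its copies held 29.1% of the control sum. The copy of Rplp2 had no counts, so its sum equals the member at 5.52. Of the highest members Rps29, Rps21, Rps28 and Rpl38 had no copy row among those linked, although 6, 3, 9 and 4 other GENCODE genes share at least 50 words with them.

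How much of each member's sequence occurs in other genes was measured over the whole annotation, as the share of its 25-base words found in any other GENCODE gene. Words on either strand were counted, and genes overlapping the member's own locus were not left out. A share is thus not a measure of copied sequence alone. For Rpl35, 23.0% of transcript words were found in other rows. The median over members was 47.9% of transcript words, against 1.81% for other protein-coding genes. Low shares were found for Rpl3l (0%), Rpl39l (2.78%), Rps15a (8.55%), Rpl8 (8.59%) and Rpl22 (11.9%). They were highest for Rpl35 (99.7%), Rpl36 (96.9%), Rpl23a (91.0%), Rpl36a (90.0%), Rpl7a (89.8%) and Rps18 (88.9%). Rps15a has a long isoform, and 96.7% of its coding words were shared. The coding words were therefore used as well; by them 33 of 80 members with a coding sequence had every word in another gene.

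Of the 4 tested members with at most 30% of their coding words shared (among them Rpl3l at 0%, Rpl8 at 11.8% and Rps3 at 26.2%) none rose in either of the authors' deposited tables. Of 6 with over 30% to 80%, 4 rose with BAF250A and 2 with BRD9. Of 68 with more than 80%, 60 rose with BAF250A and 58 with BRD9. These bands were set after the values were seen and have no test. Rpl4, which lines the exit tunnel, stood apart, with 48.0% of its coding words shared, 1 other gene that shares at least 50 words, and increases of 4.68 (SE 0.41) and 4.11 (SE 0.47) per the authors' deposited tables. In the other direction, Rpl15, Rpl21, Rpl39 and Rpl41 had all coding words in other genes and were not called.

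Across 78 members, Pearson's r between the share of coding words and the log2 fold change was 0.48 with BAF250A and 0.43 with BRD9. Spearman's rho, which uses ranks, was lower at 0.27 and 0.28. The 78 include Rpl3l, at 0% shared and -4.81 with BAF250A on a mean of 11.2 normalized counts, and r without it was not computed. For the share of transcript words r was 0.30 and 0.29. It was 0.18 and 0.19 for coding words found in other rows, and 0.03 and 0.05 for the number of copy rows. Of 32 tested members with no row among the 127 copies, 23 rose with BAF250A and 20 with BRD9. These 32 include Rpl32 and Rpl6, which rose, and their copies Rpl32l and Rpl6l, which fell and are members by symbol. They are thus not all members without a copy. Of the 48 with such a row, 41 and 40 rose. These are descriptions over genes of the same libraries, which are not independent replicates. Other protein-coding genes with over 50% of transcript words shared were more often lower than higher: 112 of 748 were higher and 254 lower with BAF250A, with a median of -0.68 in the authors' deposited table. With at most 10% shared, 1241 of 10749 were higher and 1336 lower. What part the placing of reads among copies has in the members' fold changes was not tested, since reads were not analysed here.

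**Figure D5:**
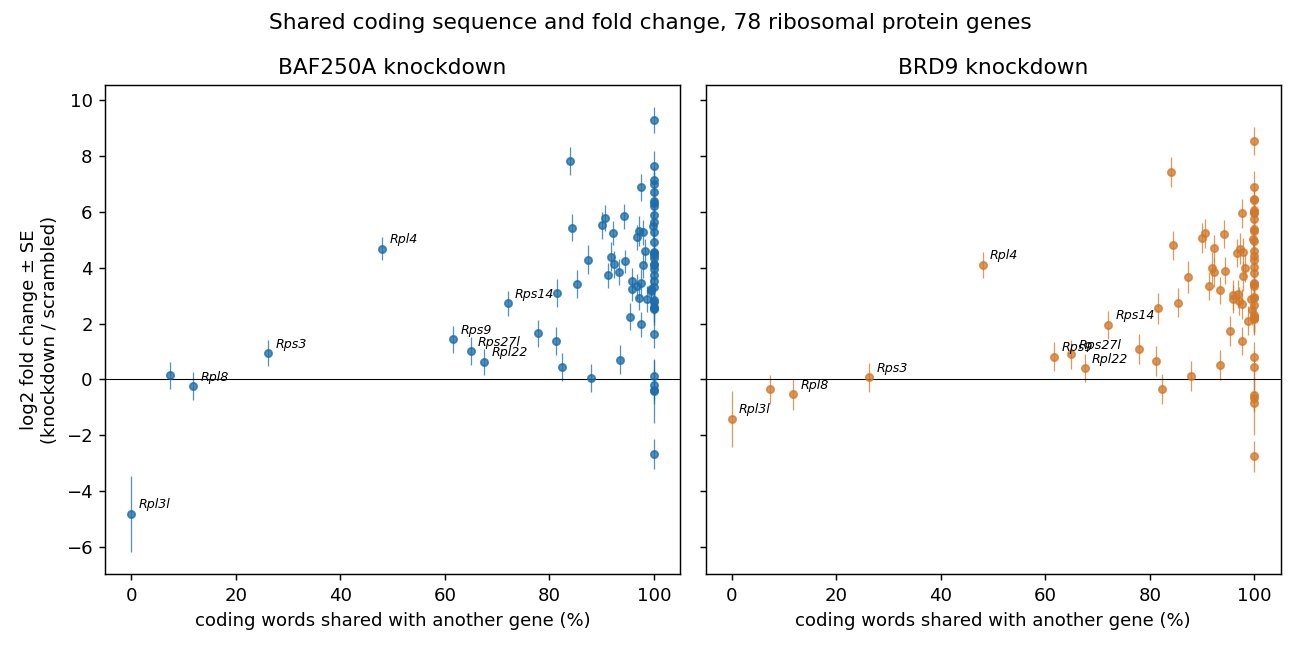
Share of a member's 25-base coding words found in another GENCODE gene (x axis, percent) and log2 fold change with its SE (y axis) for 78 members with each knockdown. Rpl3l, Rpl8 and Rps3, at 26.2% or less, show no increase past the threshold, Rpl4 at 48.0% does, and values at 100% run from -2.68 to 9.29 with BAF250A.

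The difference between the knockdowns was tested for each member by dividing the gap between its deposited log2 fold changes by the combined SE (a two-sided z test). The p-values were adjusted by Benjamini-Hochberg across all 16311 genes with an adjusted p in both tables. The value was higher with BAF250A in 75 of 80 members, with a median difference of 0.51 log2 units and a median SE of 0.71. Over all genes tested in both comparisons the median difference was -0.0023. The single-read row Rps15a-ps1 had an SE of 1.36 with BAF250A and 1.11 with BRD9. The pull of fold changes towards 0 may thus differ between the 2 comparisons, and its part in the members' differences was not tested. None of the 80 passed an adjusted p of 0.05 by this z test, 1 had an unadjusted p below 0.05, and the lowest adjusted p was 0.561, where 2.54% of all genes passed. The shared control libraries cancel in this difference, so the test is conservative. Differences ran from -3.40 (SE 1.69) for Rpl3l to 0.92 (SE 0.70) for Rpl13a, and for Rps3 it was 0.87 (SE 0.71). For Rplp0, called in one table only, the difference was 0.70 (SE 0.72), and for Rpsa it was 0.83 (SE 0.72).

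Promoter sequence was available for part of the members. RefSeq promoters on GRCm38.p6 matched 61 members, of which 17 (27.9%) held the letters CTTTC, on the sense strand, within 15 bases on either side of a start, against 4.76% of 27025 genes. Over the 300 bases around the start, CCGGAA on either strand, the core recognised by ETS factors, was found in 33 (54.1%), against 16.7% of all genes. No member held TATAAA on the sense strand 40 to 10 bases before the start, against 2.51% of all genes. CTTTC was found in 15 of 49 members that rose with BAF250A (30.6%) and in 1 of 8 that were not called (12.5%), and CCGGAA in 25 of 49 (51.0%) and 7 of 8 (87.5%), with no test of either. A match is a description of these letters and no evidence of a bound factor. Of the 8 members highest with BAF250A, 7 had a promoter entry and are shown with CTTTC in capitals; Rpl38 and Rpl13a hold the letters in this window and the other 5 do not. Rpl14, which was not called and does not hold them either, stands last:
Rps21 (chr2:180257364-180257393, plus strand): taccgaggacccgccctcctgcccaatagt
Rps28 (chr17:33824548-33824577, minus strand): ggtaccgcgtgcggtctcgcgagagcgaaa
Rpl38 (chr11:114668565-114668594, plus strand): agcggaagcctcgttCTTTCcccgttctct
Rpl24 (chr16:55966260-55966289, plus strand): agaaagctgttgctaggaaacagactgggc
Rpl13a (chr7:45128731-45128760, minus strand): gaaaccctgcgacaagacctcctcCTTTCc
Rpl9 (chr5:65391417-65391446, minus strand): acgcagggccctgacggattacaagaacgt
Rpl31 (chr1:39367836-39367865, plus strand): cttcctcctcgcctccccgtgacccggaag
Rpl14 (chr9:120571502-120571531, plus strand): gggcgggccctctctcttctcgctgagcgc

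Further genes of the translation machinery were taken from lists. Of 7 ribosomal proteins and relatives outside the symbol rule, 3 rose (42.9%) and 1 fell (14.3%) with BAF250A, and 2 rose (28.6%) and 1 fell (14.3%) with BRD9, where 11.2% and 5.11% of all genes were higher and 17.5% and 9.33% lower. Fau, which encodes a ribosomal protein fused to a ubiquitin-like domain, rose by 3.55 (SE 0.47) with BAF250A and by 2.65 (SE 0.52) with BRD9 in the authors' deposited tables. Rpl22l1, the relative of Rpl22, rose by 4.89 (SE 0.56) and 4.37 (SE 0.61), while Rpl22 was not called, and Rps27rt was the one that fell. Rack1, a scaffold on the small subunit with 4.64% of its words shared, was not called (-0.11, SE 0.50, in the BAF250A column of the authors' deposited tables). Rps3a1, a small subunit gene, is in neither the members nor this list. Its implied level was 650 normalized counts with scrambled and 23838 with BAF250A shRNA, and 703 and 19561 in the BRD9 comparison.

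Of 16 elongation factors and other genes with TOP messenger RNAs, 12 (75.0%) rose with BAF250A and 10 (62.5%) with BRD9, where 11.2% and 5.11% of all genes were higher, and none fell in the authors' deposited tables. The highest were Eif3e, a subunit of initiation factor 3, at 5.16 (SE 0.46) and 4.60 (SE 0.51), and Tpt1, the translationally controlled tumour protein, at 4.91 (SE 0.42) and 4.61 (SE 0.47), with Npm1 at 3.27 (SE 0.44) and 2.61 (SE 0.50). Eef2, the translocase of elongation, was not called (0.18, SE 0.48, in the BAF250A column of the authors' deposited tables). Eif3e, Tpt1 and Npm1 share 51.1%, 38.8% and 37.7% of their transcript words with other genes, and Eef2 31.3%. Of 33 initiation factors 7 (21.2%) rose with BAF250A and 4 (12.1%) with BRD9, where 11.2% and 5.11% of all genes were higher. Eif3m led at 6.76 (SE 0.52) and 6.24 (SE 0.56) per the authors' deposited tables, with 62.4% of its words shared. Among the listed genes Eif3j1 and Eif4ebp3, with 58.6% and 66.7% shared, were not called with either knockdown.

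Genes that take part in making ribosomes were looked at next, against the same shares of all tested genes (11.2% higher and 17.5% lower with BAF250A, 5.11% and 9.33% with BRD9). Of 15 genes of RNA polymerase I transcription 1 rose (6.67%) and 5 fell (33.3%) with BAF250A, among them Polr1b, a polymerase I subunit, at -1.69 (SE 0.48) per the authors' deposited table, and none was called with BRD9. Of 70 ribosome biogenesis genes 6 rose (8.57%) and 12 fell (17.1%) with BAF250A, and 4 rose (5.71%) and none fell with BRD9; apart from the absence of decreases with BRD9, these shares are close to those of all genes. The rRNA methyltransferase Fbl was highest, at 3.45 (SE 0.48) and 3.59 (SE 0.57) per the authors' deposited tables, with 81.0% of its words shared. Of the snoRNA host genes 1 of 13 rose (7.69%) and 5 fell (38.5%) with BAF250A, and of 15 none rose and 2 fell (13.3%) with BRD9. Of 16 regulators of TOP messenger RNAs and growth 1, Mxi1, rose (6.25%) with BAF250A and none was called with BRD9.

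The cells were checked against markers of muscle. With scrambled shRNA the implied levels were 29094 normalized counts for Myog, a regulator of muscle differentiation, and 175968 for Des, an intermediate filament protein of muscle. Other muscle markers are given with scrambled, BAF250A and BRD9 shRNA in turn. Scrambled levels in this paragraph are from the BAF250A comparison. The BRD9 comparison was normalized separately, and control levels there were slightly higher (median ratio 0.957). Against its own control of 56956 there, Mymk was slightly lower with BRD9 shRNA. The other muscle markers printed with BRD9 keep their direction. Myh3 was at 64009, 3070 and 89395, Ckm at 14901, 396 and 10267, and Mymk at 54854.5, 1889 and 55554. Actc1 was at 22552, 7876 and 114108, and Tnnt1 at 3666, 1748 and 9194. Myf5 was at 1785, 502 and 544, and Myod1 at 4321, 8462 and 14665.5. Among markers of other cell types, Ptprc (immune cells), Epcam and Krt8 (epithelium), and Pecam1 and Cdh5 (endothelium) lay between 0.365 and 5.15 with scrambled shRNA. Cd68, a macrophage marker, was at an implied 157 with scrambled shRNA, 27.2 with BAF250A and 29.6 with BRD9, and fell in both of the authors' deposited tables (-2.53 and -2.46). The neuronal markers Map2 and Tubb3 were at 176 and 5976 with scrambled shRNA, 16.0 and 457 with BAF250A, and 809 and 4998 with BRD9. The implied level of Col1a1, a fibroblast collagen, was 19302 with scrambled shRNA, 462170 with BAF250A and 121571 with BRD9, and that of Myog was 7587 with BAF250A and 55017 with BRD9. Their part in the members' values was not tested.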

How the data were processed

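RNA was sequenced in 6 libraries, 2 per group, from C2C12 cells at 48 h of differentiation. DESeq2, RSEM, Bowtie, StringTie, HISAT and the build mm10 are listed in the submitters' processing notes, without roles or versions. Per the file headers, the authors deposited, for each gene and comparison, a mean normalized count (a signal averaged over 4 libraries), a log2 fold change with its standard error in log2 units, a Wald score, a p-value and an adjusted p-value. They are comparison tables, so the count models of the plan were not fitted and the deposited calls were used.

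From these, implied group levels, sums and the z test of the difference were computed with Python 3.11.15, pandas 2.3.3, numpy 2.4.6 and scipy 1.17.1; the z test was checked on simulated data. Figures were drawn with matplotlib 3.10.9. Words of 25 bases came from GENCODE M21 transcripts (GRCm38, the assembly behind mm10), in which 25218 rows and all 83 members matched by name or ID. Rows in GENCODE as small RNAs, or overlapping a member's locus, were not counted as copies.

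The members and gene lists were chosen with earlier results of these data known. Named genes were the 8 highest and 8 lowest members per table, the 6 with the largest difference between knockdowns, paralogs and their parents, well-studied members, the 6 with the most and the 6 with the least shared words, up to 3 called genes per other list, and the 8 most changed pseudogene rows with a mean of at least 100; some of these are given as counts only, and a few genes are not reported here by name. The alternatives were Bonferroni adjustment, a threshold of 0.01, centring on the median gene, an empirical null, a minimum mean of 100, and limits of 10% and 50% on shared words.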

Additional observations from a re-analysis of the deposited data

How the results depend on the processing

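The counts of called members (68 with BAF250A, 63 with BRD9) moved by more than 1.5 times only where members were left out by their shared words. With at most 50% of transcript words shared 33 were called with BAF250A and 29 with BRD9, and with at most 10% 2 and 1, because fewer genes enter (4 tested at 10%). The median log2 fold change turned from 3.63 to -0.044 with BAF250A and from 3.04 to -0.44 with BRD9 in those 4 genes. Under the other alternatives counts ran from 50 to 68 with BAF250A and from 52 to 63 with BRD9, lowest with the empirical null (50) and with Bonferroni adjustment or the empirical null (52), and medians stayed between 3.59 and 3.79 and between 2.94 and 3.27. Single members lost their call under Bonferroni adjustment (9 with BAF250A, 11 with BRD9), the empirical null (18 and 11) or centring (0 and 1), and none reversed. The difference between knockdowns had 0 calls under all 5 alternatives. No paired analysis was possible because the tables hold no values per library, and leaving out each library in turn was not run for the same reason. Low implied levels and rows with few counts, such as Rpl3l and Rpl39, limit what can be read from their fold changes.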
